A study of Mus musculus with 10 samples.

Results

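The genes described here are 10 mouse genes for MAP kinase phosphatases, namely Dusp1, Dusp2, Dusp4, Dusp5, Dusp6, Dusp7, Dusp8, Dusp10, Dusp14 and Dusp16. The measurements are the p63 peaks that lie inside these genes or within 50 kb of either end. There were 18 such peaks among the 8451 of the series (0.213%). Because the peaks were chosen by their position near these genes, their number is given as a description, without a test.

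The peaks come from chromatin immunoprecipitation followed by sequencing (ChIP-seq), in which DNA bound to a protein is recovered with an antibody and read. p63 was recovered with the 4A4 antibody from MK1 and MK2, which the labels describe as similar lines of mouse keratinocytes, the main cells of the epidermis. There was 1 p63 library per line, and a single peak list was made from both together. The labels name no treatment and state no strain, sex, age or genotype, nor how the lines were derived. The list gives positions only, so it holds no peak height or depth, and MK1 and MK2 cannot be compared. A gene without a listed peak may lack binding or have too few reads to show it. It may also have a peak that was filtered out because it did not rank similarly in MK1 and MK2. Expression was not measured in this list. The keratinocyte label could only be set against peak positions: all 6 of the marker genes Krt5, Krt14, Trp63, Itga6, Itgb4 and Col17a1 had a peak inside the gene or within 50 kb, as did 40.8% of all protein-coding genes. The H3K4me1, H3K4me3, H3K27ac and input libraries of the same lines were not analysed here.

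MAP kinases (ERK, JNK and p38) carry signals from growth factors and stress to the nucleus and are active only while phosphorylated on a threonine and a tyrosine. Dual-specificity phosphatases of this family remove both phosphates and so end the signal. Many of their genes are themselves switched on by MAP kinase signalling, which makes them negative feedback regulators. In the epidermis, growth-factor signalling through ERK maintains proliferation of the basal layer, where p63, a p53-family transcription factor, is made.

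Of the 10 genes, 6 had a p63 peak inside the gene or within 50 kb and 4 had none. Of all 21779 protein-coding genes, 40.8% had one counted in the same way, a share at which 4.08 of 10 genes would have a peak. The share was 42.8% among the protein-coding genes no shorter than the shortest of the 10 (2.22 kb) and no longer than the longest (91.6 kb). The count of 6 is thus about 2 genes above the general share in a set of 10, and nothing particular to the family can be read from it. The 10 genes lie on 10 different chromosomes, so no peak was counted at more than 1 of them. The median was 2 peaks per gene for the 10, against 0 over all protein-coding genes, and the mean was 1.8 against 0.791. These values come from the same peak positions as the count of 6, so they are no separate evidence. Dusp7 had 6 peaks, Dusp6 and Dusp14 had 3 each, and Dusp1, Dusp8 and Dusp16 had 2 each. None of the 10 had exactly 1 peak, and 21.1% of protein-coding genes did. With 10 genes, nothing particular to the family can be read from this. At least 2 peaks were found at 19.7% of protein-coding genes, at least 3 at 9.73%, and at least 6 at 1.03%. When a peak counted only for its nearest protein-coding gene, Dusp8, Dusp14 and Dusp16 had exactly 1 each.

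**Figure D1:**
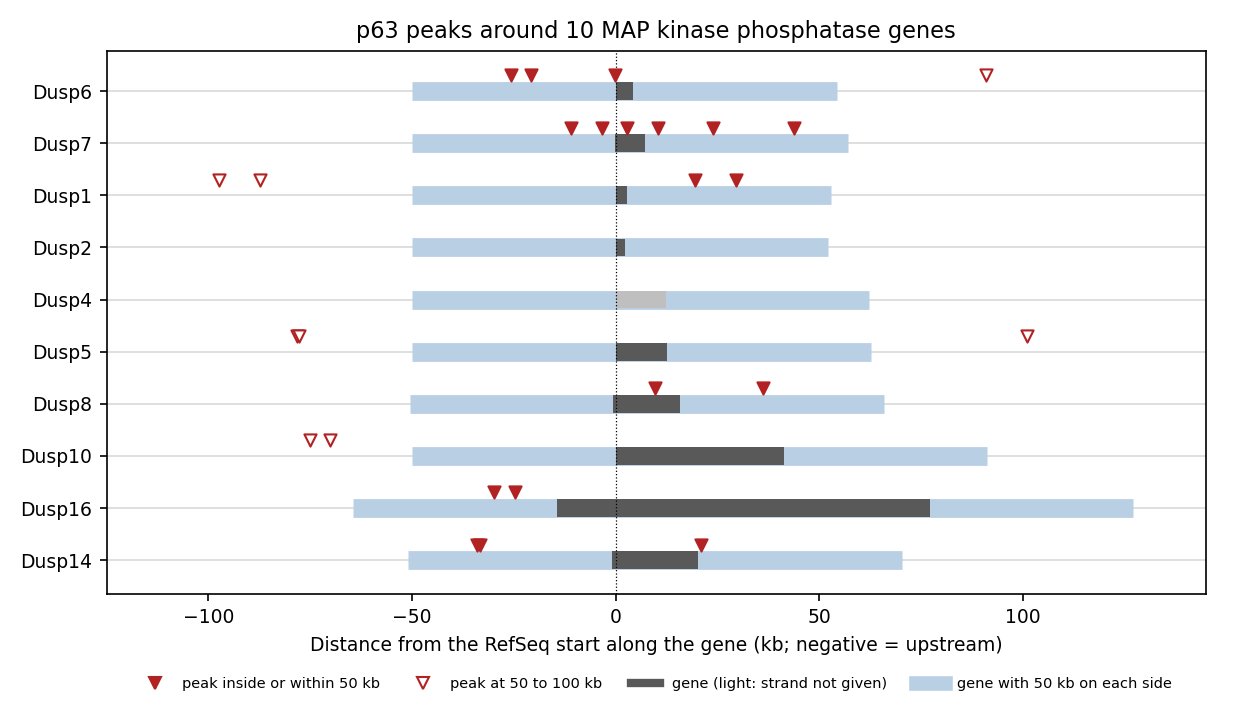
p63 peaks (triangles at peak midpoints) around each of the 10 genes, drawn along the direction of transcription with the RefSeq start at 0 kb. Dark bars are genes, the light bar is Dusp4, whose strand was not given and which is drawn in genome direction, and blue bands reach 50 kb beyond each gene. Filled triangles mark the 18 peaks inside or within 50 kb and open triangles those at 50 to 100 kb. The triangles of close peaks at Dusp5 and Dusp14 overlap. Dusp6, Dusp7 and Dusp8 each have a peak at or inside the gene, and Dusp2 and Dusp4 have none in view.

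**Figure D2:**
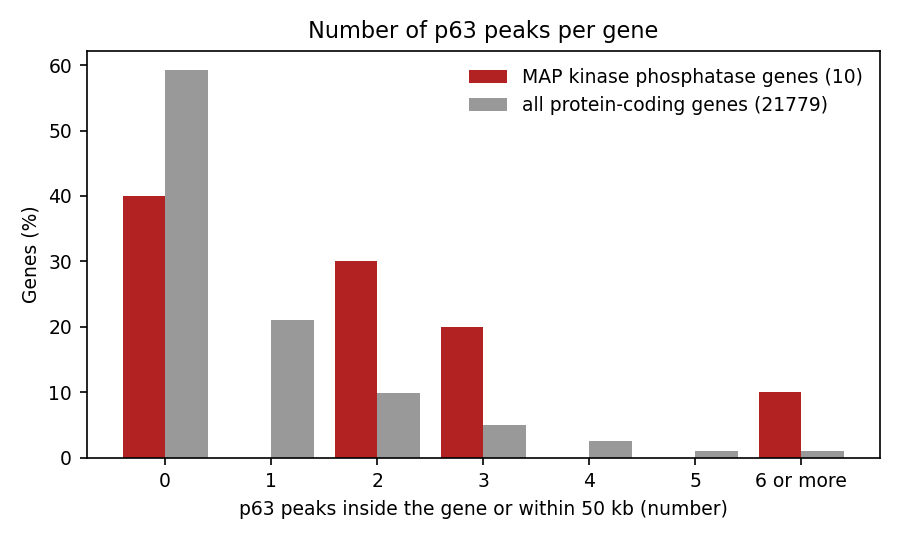
Percentage of genes (vertical axis) by the number of p63 peaks inside the gene or within 50 kb (horizontal axis), for the 10 MAP kinase phosphatase genes and for all 21779 protein-coding genes. No peak was listed for 40.0% of the 10 genes and for 59.2% of all protein-coding genes.

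The cytoplasmic phosphatases among the 10 that act mainly on ERK, Dusp6 and Dusp7, both had a peak overlapping the gene and held 9 of the 18 peaks. Dusp9, of the same kind but not among the 10, had no overlapping peak, and its nearest was 22.8 kb away. With 2 genes, nothing particular to this kind of phosphatase can be read from these counts. A peak overlapped 13.8% of all protein-coding genes. Dusp6 encodes MKP-3, a feedback inhibitor of FGF and ERK signalling. It spans 4.26 kb at chr10:99263231-99267489 on the plus strand. Its nearest peak, at chr10:99262971-99263239 and 269 bp wide, lay across the start of the gene. It covered 260 bases before the RefSeq start and 9 bases from the start on. This was the only one of the 18 peaks to overlap a promoter window, defined as 250 bases before to 50 bases after the RefSeq start. Such windows were given for 9 of the 10 genes, all but Dusp4. Over the series, 1.27% of 17492 protein-coding genes with a promoter window had a peak in it, and 2.52% of peaks overlapped one.

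The 250 bases before the Dusp6 start, chr10:99262981-99263230 (RefSeq, GRCm38.p6, plus strand), are shown because all 250 lie inside the peak. Capitals mark the matches to CNNGNNNNNNCNNG, a loose form of the paired core that p53-family proteins recognise, which reads the same on both strands.
Dusp6: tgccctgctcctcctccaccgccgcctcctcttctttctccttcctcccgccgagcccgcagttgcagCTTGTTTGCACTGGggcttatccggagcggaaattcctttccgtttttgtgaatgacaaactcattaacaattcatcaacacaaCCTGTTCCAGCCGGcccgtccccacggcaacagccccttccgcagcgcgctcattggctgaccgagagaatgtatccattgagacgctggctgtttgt
The 2 matches begin at positions -182 and -98, counted back from the RefSeq start, and do not overlap. At least 1 such match was present in 63.5% of all 32851 RefSeq windows of the same length and in 68.5% of those of protein-coding genes, so its presence is common. All 9 windows of the family held it, with 1 match at Dusp8, 8 at Dusp7 and numbers between these at the others. The tetramer CATG, which also reads alike on both strands, was absent from these bases and was present in 53.9% of all windows. The p53-family half-site was absent as well, and 7.13% of all windows held it on either strand. The half-site was also absent from the other 8 windows of the family. The Dusp6 window had a GC content of 56.4%, against a median of 52.4% over all windows.

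The other peaks at Dusp6 formed a pair upstream. They lay 25.5 kb from the gene at chr10:99237373-99237696 (324 bp wide) and 20.8 kb from it at chr10:99242252-99242463 (212 bp wide), with 4.82 kb between their midpoints. The farther one lay inside Gm34777, a long non-coding RNA gene, and the other in no annotated gene. Dusp6 was the nearest protein-coding gene of all 3 of its peaks, and no other protein-coding gene overlapped its window. A further peak stood 86.6 kb downstream, outside the window.

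Dusp7, which encodes a close relative of Dusp6 that also acts on ERK, had the most peaks of the family. It spans 7.17 kb at chr9:106368560-106375724 on the plus strand. Its 6 peaks were spread over 54.6 kb from the outermost midpoint to the other, on both sides of the gene. One peak lay within the gene at chr9:106371047-106371591. It was 545 bp wide, wider than 92.5% of all peaks, and its midpoint was 2.69 kb after the RefSeq start. Whether it falls in an exon or an intron is not known here, as the annotation gave gene ends only.

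Flanking the gene, peaks stood 3.31 kb upstream at chr9:106365076-106365254 and 3.13 kb downstream at chr9:106378856-106379146. Their widths were 179 bp and 291 bp, and the upstream one was the narrowest of the 18. Another upstream peak, 208 bp wide at chr9:106357660-106357867, lay 10.7 kb from Dusp7 but nearer to Poc1a, a centriole protein gene, at 7.14 kb. Downstream, a 329 bp peak lay 16.6 kb away at chr9:106392309-106392637. The widest of the 18, at 617 bp, lay 36.3 kb away at chr9:106412072-106412688. Both overlapped the long non-coding RNA gene Gm33616. The widest one also overlapped another such gene, Gm46131, and was nearest to Rpl29, a ribosomal protein gene, at 16.2 kb. Dusp7 was thus the nearest protein-coding gene for 4 of its 6 peaks. The distances between neighbouring midpoints, in order along the chromosome, were 7.40, 6.15, 7.68, 13.5 and 19.9 kb. Each of the 4 upstream-most peaks therefore had a neighbour within 10 kb. With 6 peaks in a window of 107 kb, Dusp7 had 5.60 peaks per 100 kb. Dusp6 had 2.88 per 100 kb of its own window, and Dusp16 had 1.04. The windows of the 10 genes together had 1.49, and those of all protein-coding genes together had 0.534. Like the peak counts, these values rest on the positions that chose the peaks.

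The inducible nuclear phosphatases Dusp1, Dusp2, Dusp4 and Dusp5 held 2 of the 18 peaks, both at Dusp1. With 1 of 4 genes against 40.8% of all protein-coding genes, no scarcity can be read from this count. Dusp1 encodes MKP-1, an immediate-early phosphatase that acts on p38, JNK and ERK. The gene spans 2.88 kb at chr17:26505591-26508472 on the minus strand, and both of its peaks lay downstream of it. They stood 16.6 kb away at chr17:26488758-26488972 (215 bp wide) and 26.5 kb away at chr17:26478794-26479069 (276 bp wide). Their midpoints were 9.93 kb apart, and both lay inside Gm34455, a long non-coding RNA gene. Dusp1 was the nearest protein-coding gene of both, and no other protein-coding gene overlapped its window. A further pair stood 87.2 and 97.2 kb upstream, inside Ergic1.

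No peak was listed at the other 3 genes of this group within 50 kb. Dusp5, which encodes a nuclear phosphatase that acts on ERK, had its nearest peaks 77.5 and 78.1 kb upstream. These were a close pair, with midpoints 0.601 kb apart, inside the long non-coding RNA gene Mirt1. Another peak stood 88.1 kb downstream, inside Smc3, a cohesin subunit gene. Dusp2, which encodes a phosphatase known from activated immune cells, had its nearest peak 189.8 kb away. For Dusp4, which encodes MKP-2, the nearest was 333 kb away.

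Among the phosphatases that act mainly on JNK and p38, Dusp8 and Dusp16 had 2 peaks each and Dusp10 had none within 50 kb. Dusp8 spans 16.4 kb at chr7:142079487-142095907 on the minus strand. One of its peaks lay inside the gene at chr7:142085429-142085621, with the midpoint 9.76 kb after the RefSeq start. At 193 bp it was one of the narrow ones, as 5.22% of all peaks were narrower. The other, 427 bp wide at chr7:142058967-142059393, lay 20.1 kb downstream of Dusp8 and inside Mob2, which encodes a regulator of NDR kinases. The midpoints were 26.3 kb apart.

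Dusp16, which encodes the JNK phosphatase MKP-7, is the longest of the 10 genes, at 91.6 kb on the minus strand (chr6:134715468-134807063). No peak lay in its body. Both of its peaks were upstream, 10.1 kb from the gene at chr6:134817158-134817433 (276 bp wide) and 15.3 kb from it at chr6:134822371-134822690 (320 bp wide). Their midpoints were 5.24 kb apart. The nearer one overlapped the non-coding gene 1700055D16Rik. The farther one was closer to Crebl2, a gene of a bZIP protein, at 7.44 kb. The RefSeq start used for Dusp16 lies inside the annotated gene, so measured from it the midpoints stood at -24.7 and -29.9 kb. Dusp10, which encodes MKP-5, had its nearest peaks 70.0 and 74.9 kb upstream, again as a pair with midpoints 4.88 kb apart. These were the peaks closest outside the 50 kb limit, and the farthest inside it was the Dusp7 peak at 36.3 kb.

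Dusp14 encodes MKP-6, a small phosphatase without the kinase-binding domain of the others. It spans 21.2 kb at chr11:84048033-84069256 on the minus strand. A 281 bp peak at chr11:84047370-84047650 lay 0.383 kb beyond its downstream end. It was the only one of the 18 to lie within 1 kb of a gene of the family without overlapping it. The other peaks were a close pair upstream, 32.1 kb away at chr11:84101371-84101769 (399 bp wide) and 32.9 kb away at chr11:84102189-84102528 (340 bp wide). Their midpoints were 0.789 kb apart, the closest spacing among the 18. Both lay inside Tada2a, which encodes a histone acetyltransferase adaptor, so only the peak at the downstream end was nearest to Dusp14.

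Of the 18 peaks, 3 overlapped a gene of the family, 8 lay upstream and 7 downstream. In all, 6 were at most 10 kb from the gene and 12 were 10 to 50 kb away. The family's gene was the nearest protein-coding gene for 12 peaks, and another gene was nearer for 6. Which gene a peak acts on cannot be read from distance. The median distance from a gene of the family to its nearest peak was 13.4 kb, against 78.8 kb over all protein-coding genes. The 4 genes without a peak within 50 kb lay 70.0 to 333 kb from one. Like the count of genes with a peak, this median rests on the positions that chose the peaks.

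Peak width was not used to choose the peaks. The 18 peaks had a median width of 286 bp with quartiles of 229 and 337 bp, and the other 8433 peaks had a median of 305 bp with quartiles of 242 and 392 bp. Of the 18, 10 were narrower than the median of all peaks and 8 were at or above it. Dusp7 held both the widest and the narrowest, and its pair of wide peaks at 545 and 617 bp stood apart from the remaining 16, which reached 427 bp.

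**Figure D3:**
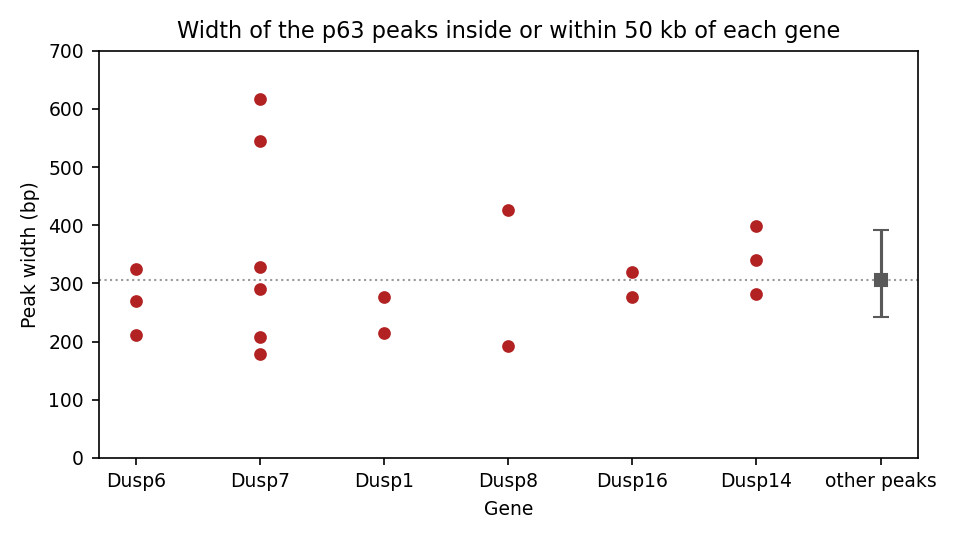
Width in bp (vertical axis) of each of the 18 p63 peaks, by gene (red points), beside the median and quartiles of the other 8433 peaks (grey square and bar). The dotted line is the median of all peaks, 305 bp. The Dusp7 points run from 179 to 617 bp, and those of the other genes from 193 to 427 bp.

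At 5 of the 6 genes with peaks, at least a pair of peaks lay within 10 kb of each other. Dusp1 met this limit narrowly, at 9.93 kb. The share of protein-coding genes with such a pair was not computed, so nothing particular to the family can be read from this count. The 12 distances between neighbouring midpoints within a gene's window ranged from 0.789 to 54.1 kb, with a median of 8.81 kb, and 7 were at most 10 kb. The window limits how far apart such peaks can be, so the distance to the nearest other peak anywhere was also taken. It had a median of 7.54 kb for the 18 peaks and 28.5 kb for the others. The 18 lie near a gene by the way they were chosen, which was not required of the others. Another peak lay within 10 kb of 12 of the 18 (66.7%) and of 29.0% of the others. Dusp7 contributed 4 of these 12 peaks. Dusp1, Dusp6, Dusp14 and Dusp16 contributed a pair each, while the peaks of Dusp8 were farther apart. Peaks of one gene share a locus and are not independent, so these shares are given without a test.

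Related genes were counted in the same way, against the same 40.8% of protein-coding genes. The 3 lists were drawn up from textbook roles with earlier results of these data known. Of 30 genes of the MAP kinase cascade itself, from Ras and its adaptors to the kinases, 13 had a peak inside or within 50 kb (43.3%), close to the general share. The median number of peaks per gene was 0, the same as over all protein-coding genes. Map2k2, which encodes the ERK kinase MEK2, had 6 peaks, of which 1 had it as nearest gene. Map2k6, which encodes a p38 kinase, had 3, all nearest to it and 2 of them in its body. The neighbouring p38 genes Mapk11 and Mapk12 had 3 each, none of them nearest to either gene.

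Of 15 other dual-specificity phosphatase and related genes found in the annotation, 10 had a peak within 50 kb (66.7%), with a median of 1 peak per gene. Most of these 10 were the nearest gene of none of their peaks. All 6 of the MAP kinase phosphatase genes with peaks were nearest to at least 1, as were most growth-factor response genes with peaks. This share was not computed over all protein-coding genes, so nothing particular to the family can be read from it. Dusp15 had 4, one of them overlapping the gene at chr2:152952361-152952621. Dusp9, the third cytoplasmic phosphatase acting on ERK, had 3, the nearest 22.8 kb away, and was the nearest gene of none. Styxl1, a catalytically inactive relative, had 3 and Dusp11, an RNA phosphatase, had 2, and each was the nearest gene of 1.

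Of 21 growth-factor response genes, which like many of the phosphatase genes are induced through MAP kinases, 16 had a peak within 50 kb (76.2%), with a median of 2. Junb, an AP-1 subunit gene, had 7 peaks and was the nearest gene of 4. Ier5, an immediate-early gene, had 6 and was the nearest gene of 5. Spred2, which encodes an inhibitor of Ras-ERK signalling, had 4, with 2 in its body, and Ccnd1, the cyclin D1 gene, had 3. No difference between these lists and the 10 phosphatase genes was tested.

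**Figure D4:**
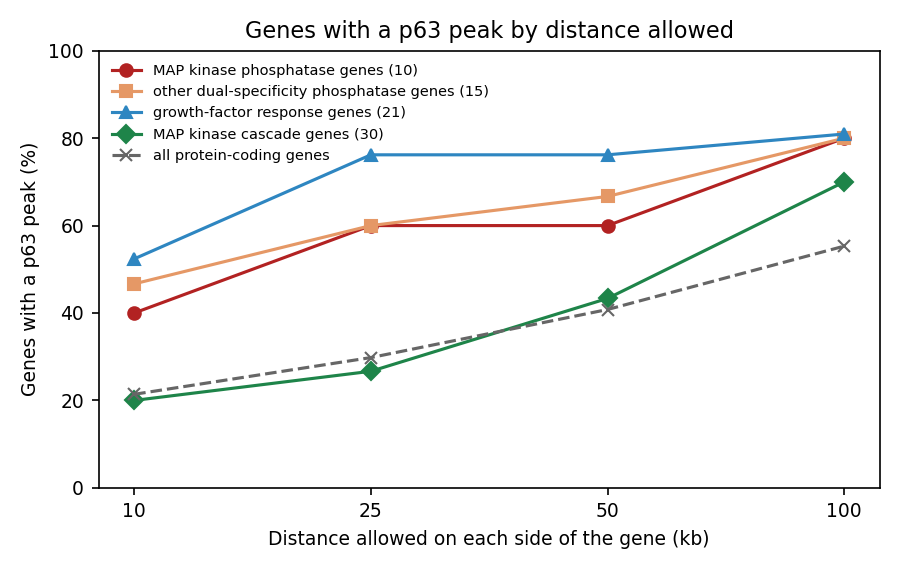
Percentage of genes with at least 1 p63 peak inside the gene or within the distance given on the horizontal axis (4 distances, evenly spaced, in kb), for the 10 MAP kinase phosphatase genes, the 3 related lists and all protein-coding genes. For the phosphatase genes the count is 4 of 10 at 10 kb, 6 at 25 and 50 kb and 8 at 100 kb, while all protein-coding genes stand at 21.4%, 29.8%, 40.8% and 55.3%.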

How the data were processed

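The data were 1 list of p63 peaks, deposited by the authors as 3 columns (chromosome, start, end), from 2 of the 10 libraries of the series. Per the labels, IDR (irreproducible discovery rate, a filter for peaks that rank similarly in a pair of replicates) was run on the MK1 and MK2 p63 libraries, which were 50 bp single-end reads. Bowtie 1.1.1, SAMtools 1.1 and mm10 appear in the submitters' processing notes. Which peak caller and thresholds were used was not given in the sources used here. Depth is unknown, and peak edges from single-end reads are approximate.

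Starts were converted to 1-based positions. Gene ends came from RefSeq (GRCm38.p6, the coordinates of mm10), leaving out rows off the main chromosomes and scaffold rows, recognised by an end below 3 Mb outside Y. The 49603 genes kept included 21779 protein-coding ones. Strand and start came from RefSeq promoter windows. A peak counted for a gene when any base lay inside it or within 50 kb, and distances run from the peak's nearest edge. Counts matched bedtools 2.31.1 on simulated peaks for all 21779 genes. No test was run, because the list has no replicates and peak positions chose the peaks. Gene names follow a fixed rule: the 10 genes, protein-coding neighbours that hold or are nearest to a peak of theirs, and, from each list, the 4 genes with the highest peak counts, ties broken alphabetically. Non-coding genes and genes holding peaks beyond 50 kb were named after their values were seen. The genes and lists were chosen with earlier results of these data known. Of 16 entries in the list of other phosphatases, Dusp29 did not match. Python 3.11.15 and pandas 2.3.3 were used.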

Additional observations from a re-analysis of the deposited data

How the results depend on the processing

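The number of the 10 genes with a peak was 4 within 10 kb, 6 within 25 kb, 8 within 100 kb, 6 by peak midpoints, 6 when a peak counted only for its nearest protein-coding gene, and 5 with peaks at least as wide as the median. The 18 peaks became 6 within 10 kb and 8 with the wider peaks alone. They were 13 within 25 kb, 26 within 100 kb and 12 by nearest gene. For the MAP kinase cascade, the 13 genes became 6 within 10 kb, 8 within 25 kb and 21 within 100 kb, while the other 2 lists stayed within 1.5 times their counts. These changes come from the construction of the alternatives, which hold fewer or more positions. Of 60 counts per gene and alternative, 41 stayed within 1.5 times the reported one, 16 were lower and 3 higher. Those that stayed include counts of Dusp2, Dusp4, Dusp5 and Dusp10 that began at 0 and remained there. Such a count could rise only in the wider window of 100 kb. Within 10 kb, the count of each gene with peaks fell by more than 1.5 times. The median width ranged from 275 to 279 bp over the alternatives, and the median spacing from 7.68 to 9.96 kb. No paired analysis was possible because the list pools MK1 and MK2, and for the same reason neither line could be left out. The lack of peak heights and depth limits what an absent peak can show.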
